A study of Mus musculus with 9 samples.

Results

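Triethyltin (TET) and trimethyltin (TMT) are organotins, tin atoms that carry 3 ethyl or 3 methyl groups, and the RNA of primed macrophages was compared here between the 2 exposures across 18193 genes. Each gene is represented by 1 probe set of a whole-genome mouse array: of the 45037 probe sets, 34945 named a single gene, and where several named the same gene the one with the highest mean level over the 9 arrays was kept. Marrow from C57BL6 mice aged 6 to 12 weeks was grown into macrophages with conditioned medium from L929 cells, a fibroblast line that secretes the macrophage growth factor CSF1. That medium was withdrawn 1 day before treatment. On day 6 in culture all wells received 33 ng/mL ultrapure LPS, a bacterial cell wall component that primes macrophages, and 3 h later saline, TMT hydroxide at 1.25 µM or TET bromide at 10 µM for a further 6 h. There are 3 arrays per group, labelled as biological replicates. Whether the replicates came from separate mice is not given in the sources used here, so the tests measure the spread between these 3 samples. No group went without LPS. TET and TMT were given at 1 dose each and the doses differ, so every difference below is one between the exposures, in which compound, counterion and dose cannot be told apart.

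As background, trialkyltins are toxic to mitochondria and to the nervous system, and the length of the alkyl chain is known to alter their potency and target tissue. Macrophages answer protein damage through heat shock factors, which induce chaperones, and answer amino acid shortage or mitochondrial stress through the transcription factor ATF4. In LPS-primed macrophages, NF-kB raises cytokine genes and Nlrp3, the sensor that with the adaptor ASC and caspase-1 forms an inflammasome and matures interleukin-1β.

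The ethyl and methyl exposures left RNA profiles that differed at many genes. At a Benjamini-Hochberg adjusted p under 0.05 (limma, all 18193 genes), 5115 genes were higher under TET (28.1%) and 4310 were lower (23.7%). With a difference of at least 2-fold, 1260 genes were higher (6.93%) and 1554 were lower (8.54%); at 8-fold or more the counts were 110 and 27. The largest differences were therefore mostly genes higher under TET, although more genes were lower than higher at 2-fold. All differences are given as the TET mean minus the TMT mean in log2 units, so that 1 unit is a doubling, and the median over all genes was 0.11 with a median standard error (SE) of 0.12. In 10374 genes (57%) the 3 TET arrays did not overlap the 3 TMT arrays.

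**Figure D1:**
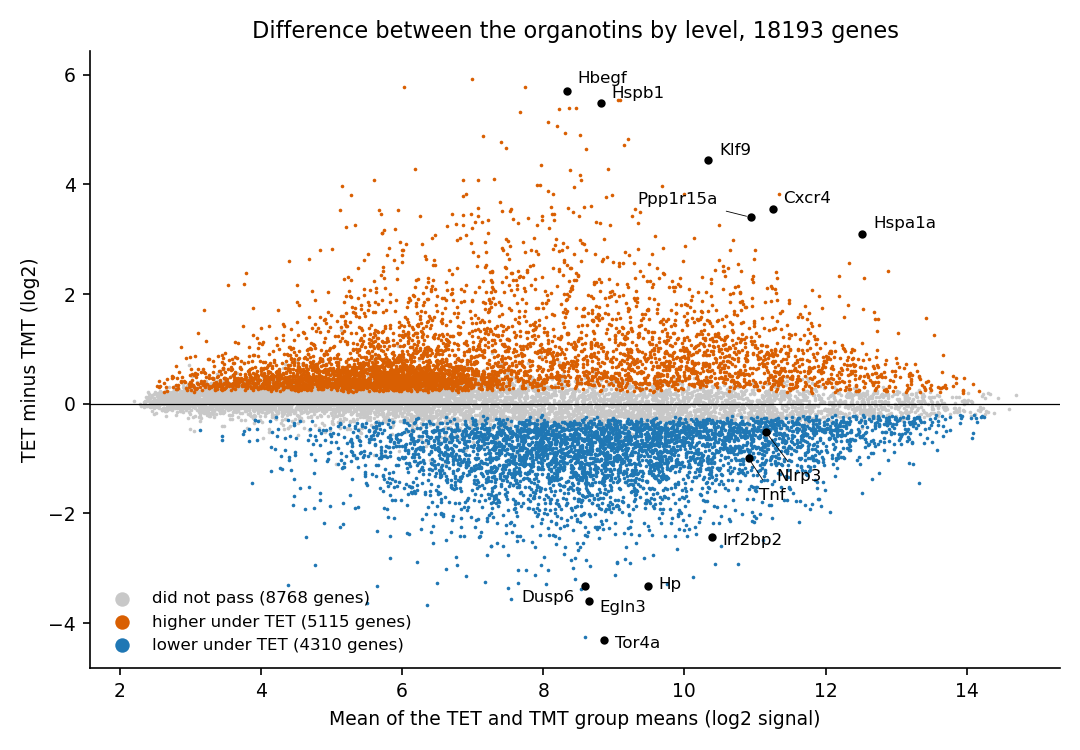
Each point is 1 of 18193 genes; the horizontal axis is the mean of the TET and TMT group means and the vertical axis the TET minus TMT difference, both in log2 units, with 5115 genes higher (orange), 4310 lower (blue) and the rest grey. Dim genes that passed lie mostly above 0, and bright genes lie on both sides.

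The TET arrays held a narrower range of signal, which may bear on the counts below. The interquartile range over genes was 3.89 ± 0.055 log2 units (SD, n = 3) under TET and 4.34 ± 0.025 under TMT, a difference of -0.45 (exact permutation test, two-sided, p = 0.1, the smallest that 3 against 3 arrays allow). With genes split by mean level into 5 bins of equal size, 22.1% were higher and 1.68% lower in the dimmest bin, whereas 23.0% were higher and 47.3% lower in the next to brightest. Replicates also varied more under TET: the median SD of a gene was 0.171 under TET, 0.118 under TMT and 0.0907 under saline. The correlation between 2 arrays, across genes, was 0.990 to 0.992 among TET arrays and 0.949 to 0.956 between TET and TMT arrays. The part of this narrower range in any gene's difference was not tested.

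The cells carried macrophage markers at levels above that of the median gene in all groups. The CSF1 receptor gene Csf1r averaged 14.26 under saline, 14.21 under TMT and 14.03 under TET, and the mean of the 9 measured macrophage markers lay between 12.3 and 12.6 on all 9 arrays. That mean covers members that differed in both directions. Of the 9, 2 were higher under TET and 4 lower (22.2% and 44.4%, beside 28.1% and 23.7% of all genes). They ranged from Mertk at 1.12 to Itgam at -1.09. Markers of B cells, T and NK cells, and erythroid cells averaged under 6 log2 units on every array, with array means of 5.75 to 5.78 under TET and 5.18 to 5.32 under TMT for the B cell markers. Array means under TET and TMT were 6.66 to 6.79 and 6.63 to 6.88 for neutrophil markers. They were 7.33 to 7.37 and 7.19 to 7.31 for megakaryocyte markers, and 6.56 to 6.89 and 6.33 to 6.72 for stromal markers. For dendritic cell markers they were 5.95 to 6.38 and 5.56 to 5.75. Some members were bright: Pf4 averaged 12.76 under TET and 12.97 under TMT, S100a8 10.03 and 10.81, and Pdgfrb 8.22 and 10.22. The 5 endothelial markers averaged 7.09 to 7.49 under TET and 5.90 to 6.15 under TMT, where Vwf, von Willebrand factor, was 6.57 under TMT and 10.14 under TET. Tek (1.37) and Kdr (0.97) were also higher under TET, by less. Pecam1 (0.42) and Cdh5 (-0.10) did not pass, so 3 of the 5 were higher and 0 lower. The 5 markers were not tested as a set. The part of any of these marker genes in the results was not tested. Fewer cells and less RNA per cell cannot be told apart in these bulk samples.

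The 20 largest positive differences, among genes at or above the median level in the TET group, ranged from 25.5- to 60.8-fold. Mean levels of these genes were 3.13 to 6.79 under TMT and 8.91 to 11.85 under TET, and in 20 of 20 the saline mean was nearer to the TMT mean, as it was in 932 of all 1260 genes higher by at least 2-fold. Hbegf, a membrane-anchored ligand of the EGF receptor, read 5.57, 5.65 and 5.23 on the TMT arrays and 11.24, 11.28 and 11.03 on the TET arrays, with saline at 6.92, 6.82 and 6.48 (TET minus TMT 5.70 (SE 0.15, adjusted p = 7.4e-09)). Hspb1, the small heat shock protein HSP25, read 6.03, 6.09 and 6.13 under TMT and 11.49, 11.43 and 11.77 under TET, and 6.29, 6.34 and 6.198 under saline (TET minus TMT 5.48 (SE 0.10, adjusted p = 1.0e-09)). For both genes the TET arrays stood apart from all 6 others by more than 4 log2 units. Dusp8 and Dusp10, phosphatases that inactivate the stress kinases JNK and p38, differed by 5.06 and 4.72. Enah, an actin filament regulator, differed by 4.91 and all 6 of its probe sets passed in the same direction. Ccnf (cyclin F, 5.14), Cdo1 (cysteine dioxygenase, 4.67), Zbtb10, a zinc finger repressor (5.78), and Ifi202b, of the interferon-inducible p200 family (5.38), were in the same set. So were genes known for other tissues: Mgam, an intestinal maltase (5.77), Gcg, the glucagon precursor (4.78), and Myh3, embryonic muscle myosin (4.94). Each of these 3 is measured by 1 probe set. The remaining members were 2010320O07Rik (5.93), Mospd4 (5.54), Plcxd2 (5.54), Tanc2 (5.39), Prrg4 (5.39), B230217O12Rik (5.32), Tmem236 (4.89) and Noxred1 (4.82). Averaging all probe sets of a gene kept the direction of these differences but changed the size of some by more than 1.5-fold, to Dusp8 2.91, Dusp10 4.05, Enah 2.98, Zbtb10 2.97, B230217O12Rik 3.67, Tanc2 3.30, Tmem236 3.89 and Plcxd2 6.24. Without probe sets that may bind related transcripts Enah differed by 5.50.

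The 20 largest negative differences were smaller, 8.70- to 19.8-fold, and the TET replicates varied more, with a median SD of 0.482 against 0.211 for the TMT replicates. In 11 of the 20 the saline mean was nearer to TMT, and in 9 it was nearer to TET; over all 1554 genes lower by at least 2-fold these counts were 996 and 558. Egln3, an oxygen-sensing prolyl hydroxylase, read 10.33, 10.48 and 10.53 under TMT and 7.24, 7.33 and 6.00 under TET beside 6.68, 7.30 and 6.99 under saline (-3.59 (SE 0.31, adjusted p = 6.2e-06)). Dusp6, a phosphatase of ERK kinases, read 10.20, 10.07 and 10.49 under TMT, 6.81, 6.34 and 7.66 under TET and 7.59, 7.50 and 7.51 under saline (-3.32 (SE 0.27, adjusted p = 4.2e-06)). In both genes the TMT arrays stood above the other 2 groups, which overlapped each other. Lpcat1, an acyltransferase of membrane lipids, had the other pattern: 11.27, 11.28 and 11.36 under saline, 10.78, 10.42 and 10.95 under TMT and 5.98, 6.36 and 7.06 under TET (-4.26 (SE 0.24, adjusted p = 3.5e-07)). Ccr2, the receptor for the chemokine CCL2, was likewise low under TET alone, at 5.22, 5.91 and 5.52 against 8.66, 9.02 and 8.72 under TMT and 7.98, 8.31 and 8.35 under saline (-3.25 (SE 0.18, adjusted p = 3.3e-07)), and all 4 of its probe sets passed. The largest negative difference of all was Tor4a, a torsin-family ATPase, at -4.31. Siglece, an inhibitory receptor for sialic acid (-3.39), Ccnd3, cyclin D3 (-3.28), Itsn1, an endocytic scaffold (-3.29), Exoc8, an exocyst subunit (-3.27), and Slc35c1, a GDP-fucose transporter (-3.26), were among the rest. Others were C130050O18Rik (-3.56), Trim65 (-3.35), Prr15 (-3.20), Spata13 (-3.16) and Nol4l (-3.12). Zinc finger genes recurred, with Zfp974 (-3.66), Zfp799 (-3.63), Zfp53 (-3.33) and Zfp266 (-3.15) in the set. Counted after these values were seen, 155 of 329 measured genes with a numbered Zfp symbol were lower under TET (47.1%, against 23.7% of all genes) and 51 were higher, with a median difference of -0.36. Among all genes in the next to brightest bin 47.3% were lower, and in the dimmest 1.68%. The Zfp genes were not matched for level, so their count cannot be read as a trait of the family. With all probe sets of a gene averaged the differences were smaller by more than 1.5-fold for several of these genes, at Lpcat1 -1.55, Ccr2 -2.34, Ccnd3 -1.74, Itsn1 -1.53, Exoc8 -1.92, Prr15 -1.09, Spata13 -2.29 and Zfp266 -1.42. Without probe sets that may bind related transcripts Zfp974 differed by -2.74.

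**Figure D2:**
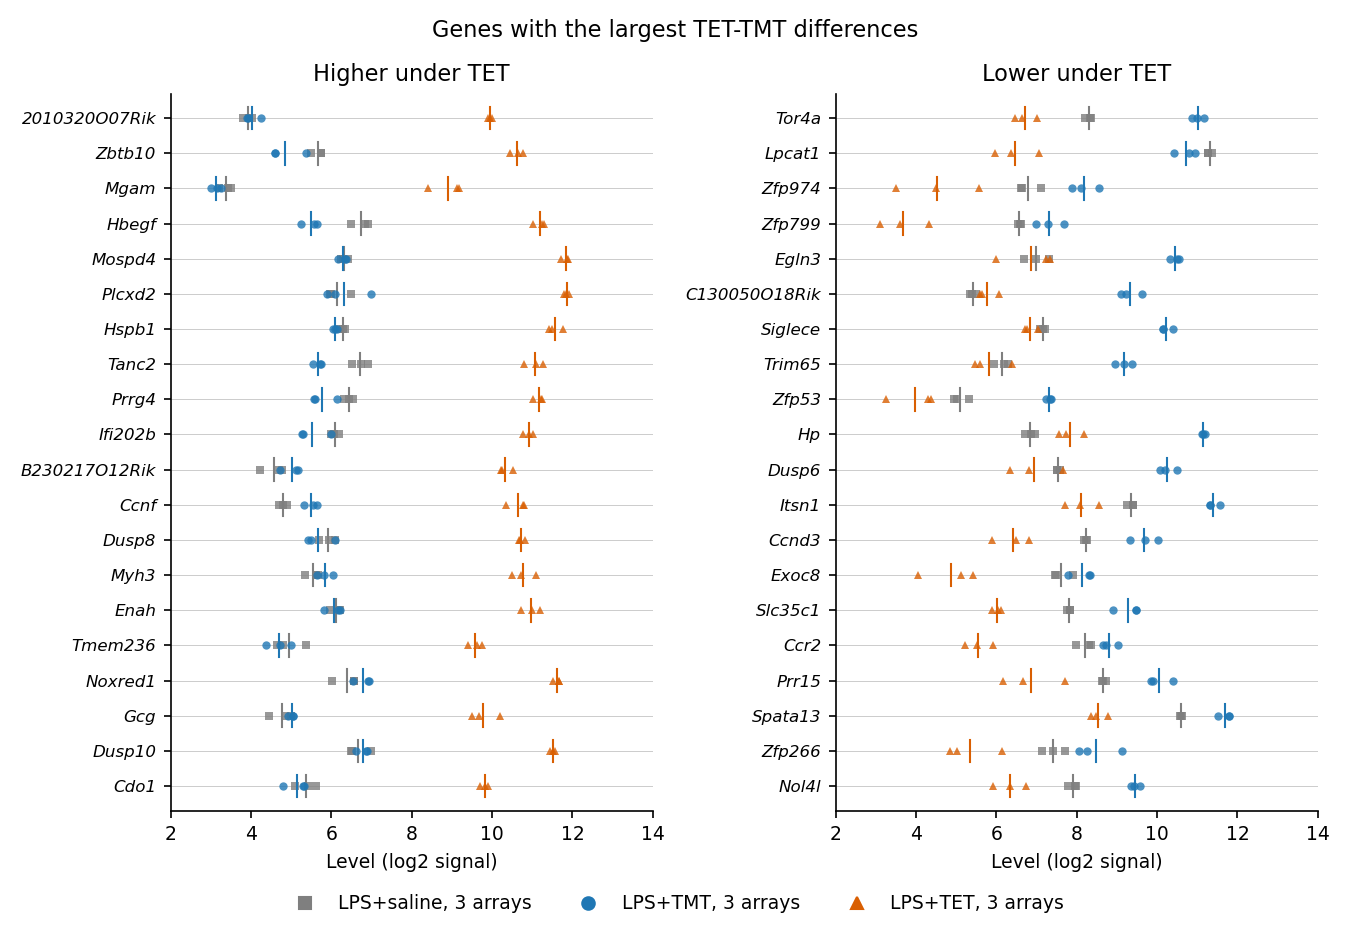
Levels (log2 signal, horizontal axis) of the 20 genes with the largest positive and the 20 with the largest negative TET minus TMT difference; each point is 1 array, vertical ticks are group means, and there are 3 arrays per group. On the left saline lies beside TMT in each gene, whereas on the right it lies beside TMT in 11 and beside TET in 9.

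Of the genes with several probe sets that passed, 5169 in all, 522 had another probe set that passed in the opposite direction, and among the 1618 of them that differed at least 2-fold 101 had one. A gene's value below is that of its brightest probe set. Counts in gene groups are to be read beside 28.1% higher and 23.7% lower over all genes. In the brightest bin of genes 26.5% were higher and 38.1% lower, and in the next to brightest 23.0% and 47.3%. Group counts were not matched for level.

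**Figure D3:**
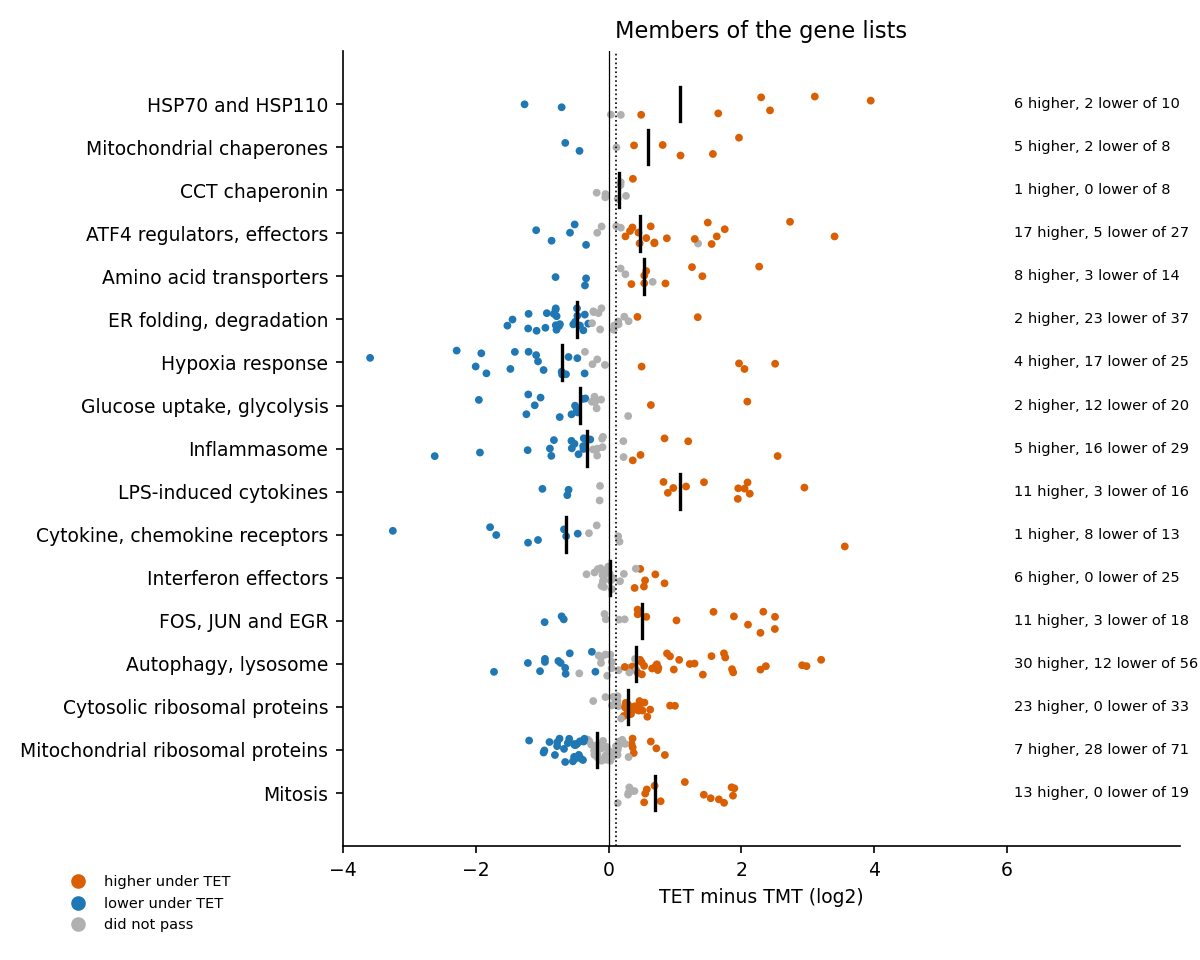
TET minus TMT difference (log2, horizontal axis) of each measured member of 17 gene groups; 1 point is 1 gene, coloured by its call, black bars are group medians and the dotted line is the median of all genes, 0.11. Cytokine genes and HSP70 genes lie mostly to the right, and hypoxia and ER folding genes mostly to the left.

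Heat shock genes differed in both directions. Of 61 measured chaperones and cochaperones, 25 were higher under TET and 11 lower (28.1% and 23.7% of all genes), with a median difference of 0.25. Among the 10 HSP70 and HSP110 genes, 6 were higher and 2 lower, and the median was 1.07. Mitochondrial chaperones and proteases had 5 higher and 2 lower of 8, and small heat shock proteins and BAG cochaperones 4 and 1 of 11. HSP40 cochaperones had 4 higher and 3 lower of 10, and HSP90 and its cochaperones 5 and 3 of 12. Hspa1a, the stress-inducible HSP70, read 10.31, 10.53 and 10.39 under saline, 10.93, 11.12 and 10.86 under TMT and 14.11, 14.002 and 14.11 under TET (3.10 (SE 0.10, adjusted p = 1.8e-08)). Its near-identical copy Hspa1b differed by 2.43, and the probes may not tell the 2 apart. For Hspa1a the TET arrays stood more than 2 log2 units above both other groups. Hspa1l, a testis-rich HSP70, differed by 3.95, the HSP110 gene Hsph1 by 2.30 and Hspa4l by 1.65. Bag3, the cochaperone that links HSP70 to autophagy, read 8.57, 8.46 and 8.70 under TMT and 11.20, 11.51 and 11.64 under TET (2.87 (SE 0.12, adjusted p = 7.0e-08)). The mitochondrial chaperonin pair differed in the same direction, with Hspd1 (HSP60) at 1.96 and its partner Hspe1 at 1.57, as did Hspa9, the mitochondrial HSP70, at 1.08. Hsp90aa1, the inducible HSP90, differed by 1.25, its activator Ahsa1 by 1.18 and the HSP40 gene Dnajb4 by 1.81. Members that were lower included Hspa14 (-1.27), Dnajc5 (-0.88) and Hsp90b1, the HSP90 of the endoplasmic reticulum (-0.58). Of the 8 subunits of the cytosolic CCT chaperonin 1 passed, higher under TET; 2 were higher without TET replicate 1 or TMT replicate 3, 4 with cyclic loess normalization, and 1 was lower without TET replicate 3. Without probe sets that may bind related transcripts the differences were Hspa14 -0.50, Hspa1b 4.92 and Hspe1 2.29, and Hspa1b differed by 3.98 with its probe sets averaged.

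Promoter stretches of 4 of these genes are shown because heat shock factors bind inverted repeats of the letters GAA. The 250 bases before each RefSeq start site (assembly GRCm38.p6) were searched for GAANNTTC and TTCNNGAA, each of which reads the same on both strands; matches of the 2 patterns can overlap. GAANNTTC was found for 11 of 52 listed chaperone genes with a promoter (21.2%) and for 7.73% of all 27025 genes with one. TTCNNGAA was found for 7 of the 52 (13.5%) and for 8.11% of all genes. The matches are in capitals.
Hspb1: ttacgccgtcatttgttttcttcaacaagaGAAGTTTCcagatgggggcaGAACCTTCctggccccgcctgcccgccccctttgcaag
Hspa1a: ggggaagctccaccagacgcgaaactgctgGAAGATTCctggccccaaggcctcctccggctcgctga
Hsph1: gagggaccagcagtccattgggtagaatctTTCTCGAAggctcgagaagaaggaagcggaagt
Hspe1: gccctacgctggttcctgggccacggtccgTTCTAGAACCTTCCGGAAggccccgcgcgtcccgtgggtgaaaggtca
The stretches lie at chr5:135887772-135887859, plus strand, for Hspb1, chr17:34972223-34972290, minus strand, for Hspa1a, chr5:149636337-149636399, minus strand, for Hsph1, and chr1:55088029-55088106, plus strand, for Hspe1, and each is written 5′ to 3′ on its gene's strand. The Hspe1 stretch holds 3 overlapping matches and lies between Hspe1 and Hspd1, which are transcribed away from each other.

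Of 72 measured genes of the ATF4 response, 36 were higher under TET and 12 lower (50.0% and 16.7%, beside 28.1% and 23.7% of all genes). The median difference was 0.38. Chac1, which degrades glutathione, separated all 3 groups, at 5.70, 5.72 and 5.66 under saline, 7.22, 7.87 and 7.02 under TMT and 9.90, 10.12 and 10.27 under TET (2.73 (SE 0.19, adjusted p = 1.7e-06)). Ppp1r15a (GADD34), the phosphatase subunit that reverses eIF2α phosphorylation, read 10.82, 10.63 and 10.64 under saline, 9.42, 8.95 and 9.35 under TMT and 12.46, 12.79 and 12.66 under TET (3.401 (SE 0.14, adjusted p = 5.4e-08)). Chac1 was thus lowest under saline and highest under TET, whereas for Ppp1r15a the TMT arrays lay below saline and the TET arrays above it. Atf4 itself differed by 0.57 (SE 0.09, adjusted p = 5.9e-04), Ddit3 (CHOP) by 0.69, and the pseudokinase Trib3 read 6.52, 6.399 and 6.13 under saline, 9.45, 9.74 and 8.95 under TMT and 11.15, 10.77 and 10.70 under TET, a difference of 1.49 (SE 0.20, adjusted p = 1.5e-04). The ATF4 partner Cebpg differed by 1.55 and Eif2ak3, which encodes the eIF2α kinase PERK, by 1.75. Asns, asparagine synthetase, differed by 1.37, and among the 14 amino acid transporters 8 were higher and 3 lower, led by Slc1a4 (2.27), Slc1a5 (1.41) and Slc38a2 (1.25). Of 19 cytosolic aminoacyl-tRNA synthetases, which charge tRNAs, 7 were higher and 0 lower; Sars (1.06), Cars (1.05), Aars (0.99) and Rars (0.99) were among the 7. With cyclic loess normalization 13 were higher, and without TET replicate 3 1 was lower. Other listed targets went the opposite way: Aldh18a1, of proline synthesis (-1.87), Mthfd1l, a mitochondrial folate enzyme (-1.13), Vegfa (-1.09) and Psat1, of serine synthesis (-0.56). The serine, glycine and one-carbon enzymes as a group had 4 higher and 4 lower of 12. With all probe sets averaged the differences were Cebpg 0.52, Aldh18a1 -0.93, Ddit3 1.41 and Vegfa -0.40. Without those that may bind related transcripts they were Aldh18a1 -0.90 and Atf4 1.62.

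The element that ATF4 binds with C/EBP partners was searched as TGATGNAA on both strands in the same windows, and 3 stretches show it. It was found for 11 of 55 listed genes with a promoter and for 3.91% of all genes.
Chac1: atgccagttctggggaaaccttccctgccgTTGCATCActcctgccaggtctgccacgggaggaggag
Asns: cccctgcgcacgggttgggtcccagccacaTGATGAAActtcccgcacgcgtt
Slc7a11: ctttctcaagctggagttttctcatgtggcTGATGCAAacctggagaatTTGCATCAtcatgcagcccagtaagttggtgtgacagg
These lie at chr2:119351019-119351086, plus strand, for Chac1, chr6:7693210-7693262, minus strand, for Asns, and chr3:50443623-50443709, minus strand, for Slc7a11, the cystine importer, which differed by 0.85 (SE 0.12, adjusted p = 2.0e-04). The Slc7a11 stretch holds 2 matches in opposite orientation.

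Genes of folding and degradation in the endoplasmic reticulum (ER) lay on the other side, with a median of -0.47. Of 37, 23 were lower under TET and 2 were higher (62.2% and 5.41%, beside 23.7% and 28.1% of all genes). Creld2, an ER stress gene, read 9.66, 9.90 and 9.76 under saline, 10.62, 10.68 and 10.60 under TMT and 9.25, 8.88 and 9.19 under TET (-1.53 (SE 0.11, adjusted p = 2.5e-06)). Its TMT arrays stood above saline and its TET arrays below. Derl2, of ER-associated degradation, differed by -1.45, the secreted ER stress protein Manf by -1.21, the oxidase Ero1a by -1.21, the sensor Atf6b by -1.09 and the transcription factor Xbp1 by -0.95. Dnajb9, an ER cochaperone, was the exception in size, at 1.34. Hspa5 (BiP), the main ER chaperone, averaged 13.20 under TMT and 13.29 under TET and did not pass, with a 95% interval of the difference of -0.13 to 0.30. With cyclic loess normalization the ER group had 19 lower and 4 higher. Ero1a differed by -1.81 with its probe sets averaged.

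Oxidative stress genes had 13 higher and 9 lower of 35 measured, or 37.1% and 25.7%, near the 28.1% and 23.7% of all genes. Mafk and Maff, small MAF partners of NRF2 and BACH1, differed by 2.03 and 1.89, and the heme-sensing repressor Bach1 by 1.18. Mafk read 11.41, 11.30 and 11.33 under saline, 10.37, 10.10 and 10.37 under TMT and 12.18, 12.28 and 12.46 under TET, so that TMT arrays lay lowest and TET arrays highest. Gsr, glutathione reductase, read 12.67, 12.50 and 12.77 under TMT and 11.04, 11.21 and 11.11 under TET (-1.53 (SE 0.10, adjusted p = 7.9e-07)). Gclc, which makes the glutathione precursor, differed by 0.90 and Srxn1, sulfiredoxin, by 0.87. Nfe2l2, the gene of NRF2, differed by -0.997 in its brightest probe set, but by -0.15 when its probe sets were averaged, which did not pass. Hmox1, heme oxygenase, was bright under both, at 12.78, 12.25 and 12.99 under TMT and 12.66, 13.15 and 13.11 under TET, beside 10.26, 10.03 and 10.31 under saline. Its TET arrays overlapped the TMT arrays, and the interval of the difference was -0.13 to 0.73 (adjusted p = 0.21).

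The 4 metallothionein-related genes, metal-binding proteins and their zinc-sensing regulator, were all higher under TET, with Mt2 at 14.09, 14.16 and 14.12 under saline, 13.29, 13.12 and 13.25 under TMT and 14.07, 14.17 and 14.10 under TET (0.89 (SE 0.08, adjusted p = 1.2e-05)) and Mtf1 at 1.01, or 0.40 with its probe sets averaged. Mt2 was thus low under TMT and at the saline level under TET. Mt1 differed by 0.73, but by 0.23, which did not pass, without probe sets that may bind related transcripts. The zinc importers Slc39a8 (2.18) and Slc39a10 (1.89) were higher under TET, as was the zinc exporter Slc30a4 (1.93). In contrast, 5 of 6 copper and magnesium transporters were lower and 0 higher, led by the copper importer Slc31a1 at -1.74 and Slc41a2 at -1.35. In iron handling 4 of 17 genes were higher and 9 lower (23.5% and 52.9%, beside 28.1% and 23.7% of all genes). Slc40a1, ferroportin, the iron exporter, read 6.33, 6.09 and 5.93 under saline, 6.38, 6.58 and 5.98 under TMT and 9.96, 9.87 and 9.86 under TET (3.58 (SE 0.15, adjusted p = 7.6e-08)). Hamp, hepcidin, the peptide that removes ferroportin from the membrane, read 7.31, 7.69 and 6.48 under TMT and 10.51, 10.47 and 10.36 under TET (3.29 (SE 0.25, adjusted p = 2.8e-06)). Hp, haptoglobin, which captures free hemoglobin, read 6.72, 6.95 and 6.87 under saline, 11.11, 11.15 and 11.18 under TMT and 7.56, 7.73 and 8.18 under TET (-3.32 (SE 0.15, adjusted p = 8.5e-08)). Ferroportin and hepcidin were therefore high under TET and haptoglobin high under TMT. Lcn2, lipocalin-2, which binds bacterial siderophores, differed by -1.64 and the iron regulatory protein gene Ireb2 by -1.65. Spic, the transcription factor of iron-recycling macrophages, averaged 5.39 under saline, 8.999 under TMT and 8.88 under TET and did not pass between the organotins (interval -0.59 to 0.35).

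Hypoxia genes were largely higher under TMT, with a median of -0.70. Of 25, 17 were lower under TET and 4 higher (68.0% and 16.0%, beside 23.7% and 28.1% of all genes). All 8 regulators passed, 7 of them lower. Beside Egln3, the prolyl hydroxylase Egln1 read 10.45, 10.53 and 10.50 under saline, 11.16, 11.21 and 11.28 under TMT and 9.02, 8.93 and 8.83 under TET (-2.29 (SE 0.09, adjusted p = 3.5e-08)). Vhl, the ligase subunit that targets HIF for degradation, differed by -1.92, the asparagine hydroxylase Hif1an by -1.48 and Hif1a by -1.06. Epas1, which encodes HIF-2α, was the regulator that was higher, at 6.09, 6.56 and 6.61 under TMT and 8.26, 8.81 and 8.33 under TET, beside 8.38, 8.33 and 8.21 under saline (2.04 (SE 0.17, adjusted p = 5.4e-06)). Its TET level overlapped saline and its TMT level was below both. Of 17 targets, 10 were lower and 3 higher. Bnip3, a mitophagy receptor, read 11.38, 11.40 and 11.35 under saline, 12.65, 12.49 and 12.76 under TMT and 10.63, 10.81 and 10.93 under TET (-1.84 (SE 0.10, adjusted p = 4.0e-07)), and Pdk1, which blocks pyruvate entry to mitochondria, differed by -2.003 and the adenylate kinase Ak4 by -1.41. Against this direction stood Bhlhe40, a circadian and cytokine regulator (2.51), and Ndrg1 (1.96). With cyclic loess normalization 14 were lower and 4 higher. Glucose genes had 12 lower and 2 higher of 20 (60.0% and 10.0%, beside 23.7% and 28.1% of all genes). Without probe sets that may bind related transcripts 7 were lower. The lactate exporter Slc16a3 differed by -1.96, hexokinase Hk2 by -1.24 and Pfkfb3, an activator of glycolysis, by -1.11. Of the glucose transporters Slc2a1 differed by -0.74 and Slc2a3 by 2.09. With all probe sets averaged the differences were Hif1an -0.62 and Slc2a3 1.31, and without those that may bind related transcripts they were Hif1a -1.91, Ak4 -2.23 and Slc2a3 0.44.

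ACGTG, a core form of the element bound by HIF, was the only form searched. It was found on either strand for 14 of 22 listed hypoxia genes with a promoter (63.6%) and for 18.5% of all genes. Among members lower under TET 10 of 17 held it (58.8%). Ankrd37, P4ha1, P4ha2 and Ddit4, which did not pass, held it too. Stretches of 3 genes that were lower under TET are shown, 2 prolyl hydroxylase genes and a mitophagy receptor gene.
Egln3: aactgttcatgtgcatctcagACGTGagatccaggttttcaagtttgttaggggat
Egln1: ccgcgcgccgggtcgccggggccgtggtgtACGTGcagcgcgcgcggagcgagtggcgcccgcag
Bnip3: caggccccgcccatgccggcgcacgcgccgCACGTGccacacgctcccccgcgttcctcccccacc
They lie at chr12:54204069-54204124, minus strand, for Egln3, chr8:124949288-124949352, minus strand, for Egln1, and chr7:138909579-138909644, minus strand, for Bnip3. In the Bnip3 stretch the 2 matches are 1 palindrome read on both strands. A match describes the letters in the window only.

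**Figure D4:**
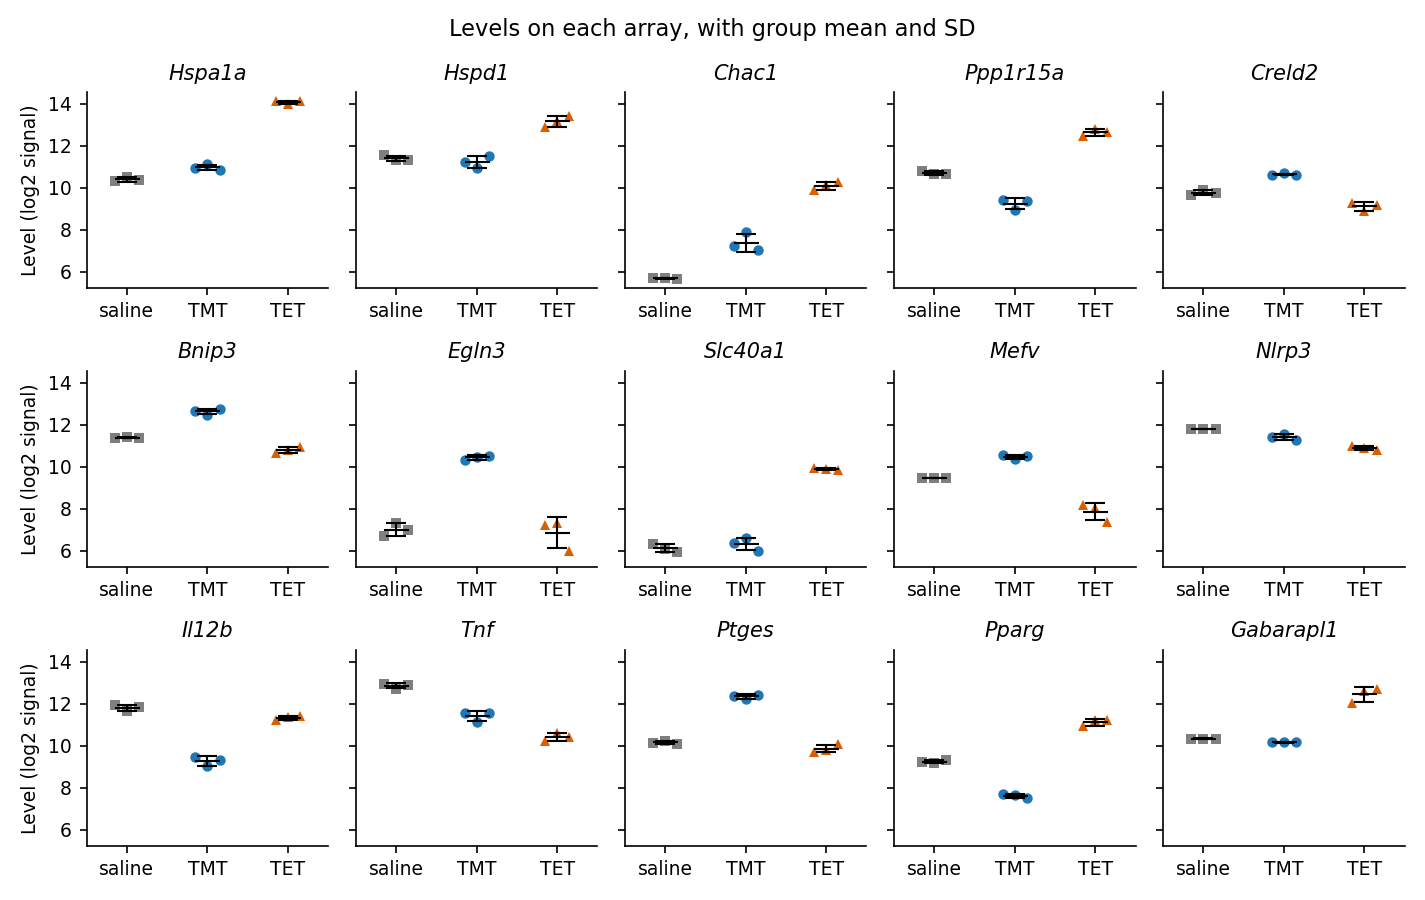
Levels (log2 signal, vertical axis) of 15 genes on each array by group, with the group mean and SD (n = 3). Hspa1a, Hspd1, Slc40a1 and Gabarapl1 are high under TET alone, Bnip3, Egln3 and Ptges are high under TMT alone, and Il12b is low under TMT alone.

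Inflammasome genes tended to be lower under TET, with a median of -0.33. Of 29, 16 were lower and 5 higher (55.2% and 17.2%, beside 23.7% and 28.1% of all genes). The group is bright, with a median level of 11.23 under TET and 11.41 under TMT. In the brightest bin of all genes 38.1% were lower and 26.5% higher. Nlrp3 read 11.81, 11.82 and 11.80 under saline, 11.44, 11.55 and 11.25 under TMT and 11.002, 10.90 and 10.79 under TET (-0.51 (SE 0.10, adjusted p = 0.0016)), and Il1b, the gene of pro-interleukin-1β, read 13.86, 13.75 and 13.84, 13.67, 13.40 and 13.78 and 12.77, 13.16 and 13.24 in the same order (-0.56 (SE 0.14, adjusted p = 0.0069)). Both differences were smaller than 1.5-fold, and the arrays did not overlap. Pycard, the adaptor ASC, differed by -0.82 (SE 0.08, adjusted p = 2.4e-05) and Gsdmd, the pore-forming gasdermin D, by -0.86 (SE 0.18, adjusted p = 0.003). Mefv, pyrin, read 9.45, 9.46 and 9.45 under saline, 10.54, 10.38 and 10.52 under TMT and 8.17, 8.02 and 7.39 under TET (-2.62 (SE 0.17, adjusted p = 1.1e-06)). The flagellin sensors Naip5 and Naip6 differed by -1.94 and -1.22, and their probes may not tell these related genes apart. Aim2, the DNA sensor, differed by 0.84 and Casp4, which encodes the LPS-sensing caspase-11, by 0.48. P2rx7, the ATP-gated channel upstream of Nlrp3, had the largest positive difference in the group: it read 8.98, 8.86 and 8.94 under saline, 9.56, 9.18 and 9.73 under TMT and 11.77, 12.00 and 12.33 under TET (2.54 (SE 0.17, adjusted p = 1.0e-06)). Casp1 (interval -0.28 to 0.11), Il18 (-0.34 to -0.00) and the Nlrp3 partner kinase Nek7 (-0.31 to 0.11) did not pass. P2rx7 differed by 3.89 with its probe sets averaged.

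LPS-induced cytokine genes were mostly higher under TET, with a median of 1.07. Of 16, 11 were higher and 3 lower (68.8% and 18.8%, beside 28.1% and 23.7% of all genes). Il12b, the interleukin-12 p40 subunit, read 11.94, 11.65 and 11.84 under saline, 9.48, 9.03 and 9.32 under TMT and 11.21, 11.35 and 11.41 under TET (2.05 (SE 0.13, adjusted p = 8.1e-07)). Il10, the anti-inflammatory cytokine, read 11.48, 11.67 and 11.68 under saline, 9.25, 9.14 and 8.69 under TMT and 10.91, 11.12 and 11.33 under TET (2.09 (SE 0.16, adjusted p = 2.8e-06)). In both genes the TMT arrays lay more than 1.5 log2 units below the other groups, and the TET arrays lay just under saline. Tnfsf4, the OX40 ligand, differed by 2.95, Csf1, the macrophage growth factor, by 2.12, Osm, oncostatin M, by 1.95, Ifnb1, interferon-β, by 1.94 and Il6 by 0.83. Tnf went against them, at 12.93, 12.73 and 12.91 under saline, 11.54, 11.14 and 11.54 under TMT and 10.21, 10.61 and 10.42 under TET (-0.998 (SE 0.14, adjusted p = 1.9e-04)). Chemokines were mixed, 6 higher and 4 lower of 19 (31.6% and 21.1%, near the 28.1% and 23.7% of all genes). Among them were Ccl17 at 1.16, Cxcl2 at 0.67, Ccl7 at -0.66 and the interferon-induced Cxcl11 at -1.01. Receptors were mostly lower, 8 of 13 against 1 higher (61.5% and 7.69%, beside 23.7% and 28.1% of all genes). Beside Ccr2, the fractalkine receptor Cx3cr1 differed by -1.79, Ccr1 by -1.69 and the G-CSF receptor Csf3r by -1.21. The receptor that was higher, Cxcr4, which binds CXCL12, read 7.91, 8.02 and 7.68 under saline, 9.42, 9.54 and 9.47 under TMT and 12.95, 13.06 and 13.09 under TET (3.56 (SE 0.10, adjusted p = 1.3e-08)). With all probe sets averaged the differences were Csf1 1.49 and Cx3cr1 -1.08.

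Genes of Toll-like receptor signalling differed in both directions. Of 41, 15 were higher and 18 lower (36.6% and 43.9%, beside 28.1% and 23.7% of all genes). The adaptors Tirap and Myd88 differed by -1.66 and -1.03, while Ticam1 (TRIF), the adaptor of the interferon branch, differed by 1.30. Tlr1 differed by -1.82, and Ly96 (MD-2), which holds LPS on TLR4, by 0.90. Rel, the NF-kB subunit c-Rel, read 12.11, 12.07 and 11.99 under saline, 10.05, 9.79 and 9.81 under TMT and 11.78, 11.66 and 11.80 under TET (1.86 (SE 0.10, adjusted p = 2.5e-07)). The NF-kB inhibitor Nfkbie differed by -1.86 and Nfkbia (IκBα) by -0.84. Rel was therefore low under TMT alone, whereas both inhibitors were lowest under TET. Irak3, a brake on TLR signalling, read 10.50, 10.30 and 10.23 under saline, 12.17, 11.96 and 12.25 under TMT and 10.30, 10.40 and 10.14 under TET (-1.84 (SE 0.11, adjusted p = 7.5e-07)). The STAT-induced feedback genes Socs2 and Cish differed by 3.43 and 2.51. Among ERK and related phosphatases Dusp4 (2.14) and Dusp5 (1.89) were higher, and Dusp2 was lower, at 12.73, 12.66 and 12.70 under saline, 11.34, 10.85 and 11.19 under TMT and 8.76, 8.95 and 9.04 under TET (-2.21 (SE 0.13, adjusted p = 4.9e-07)). Socs2 differed by 2.14 with its probe sets averaged.

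Interferon-stimulated effectors showed small differences. Of 25 measured, 6 were higher (24.0%, near the 28.1% of all genes) and 0 lower (beside 23.7% of all genes), and the median was 0.01. The largest difference was Irgm1, an immunity GTPase, at 0.84, followed by Oas2 at 0.70. Centring each array on its median turned the median of the group to -0.04 and gave 5 higher and 1 lower; without TMT replicate 2, 2 were lower. Regulators differed more, 3 higher and 6 lower of 12. Irf2bp2, a corepressor, read 7.001, 7.53 and 6.84 under saline, 11.62, 11.45 and 11.73 under TMT and 9.04, 8.85 and 9.64 under TET (-2.42 (SE 0.22, adjusted p = 9.4e-06)). All 3 groups stood apart for it. Irf8 differed by 1.29, Irf9, of the interferon-activated complex ISGF3, by 1.17 and Irf3 by -1.31. Irf3 differed by -2.37 without probe sets that may bind related transcripts.

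Immediate early genes were mostly higher under TET, 11 of 18 with 3 lower (61.1% and 16.7%, beside 28.1% and 23.7% of all genes). Egr1 read 8.83, 9.04 and 8.95 under saline, 8.69, 8.64 and 8.16 under TMT and 10.84, 10.66 and 10.85 under TET (2.29 (SE 0.14, adjusted p = 7.0e-07)), and Fosl1 (2.50), Nr4a3 (2.50), Egr2 (2.10) and Jun (1.58) were higher too, as was Myc at 2.33. Klf9, a glucocorticoid- and stress-responsive repressor, read 8.11, 8.36 and 7.98 under saline, 8.06, 8.42 and 7.88 under TMT and 12.82, 12.60 and 12.26 under TET (4.44 (SE 0.18, adjusted p = 4.8e-08)). Its saline and TMT arrays overlapped and the TET arrays stood more than 3 log2 units above. Klf4 differed by 2.16 and Klf13 by -1.69. Of the 5 measured EGF receptor ligands 1 passed, Hbegf, and 2 did without TET replicate 3 or TMT replicate 2; Tgfa differed by 0.02 without passing. Among p53 targets and GADD45 genes 6 of 12 were higher and 1 lower (50.0% and 8.33%, beside 28.1% and 23.7% of all genes). Higher were Gadd45g (2.29), Plk2 (1.78), Trp53inp1 (1.74), Mdm2 (1.67) and Gadd45a (1.66), with the sestrin Sesn1 at -1.13. Pmaip1 (NOXA), a BH3 death protein, read 6.29, 6.65 and 6.74 under saline, 7.99, 8.04 and 7.91 under TMT and 9.79, 10.20 and 9.83 under TET (1.96 (SE 0.14, adjusted p = 2.1e-06)), while the BCL2 family as a whole had 3 higher and 4 lower of 15. Foxo3, a stress transcription factor, read 7.12, 7.53 and 7.29, 10.78, 11.02 and 10.996 and 9.14, 9.24 and 9.12 in the saline, TMT and TET groups (-1.77 (SE 0.12, adjusted p = 1.2e-06)), and Irs2, an insulin signalling adaptor and FOXO target, differed by 2.35. With all probe sets averaged the differences were smaller, at Klf9 3.3998, Klf13 -0.68, Fosl1 1.83, Jun 0.90, Nr4a3 1.63, Plk2 0.95 and Sesn1 -0.49, and without those that may bind related transcripts they were Foxo3 -0.47 and Mdm2 0.38.

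Of 15 genes of the LXR, RXR and PPAR group, nuclear receptors of lipids and their targets, 4 were higher and 5 lower (26.7% and 33.3%, near the share of all genes). Pparg, the fatty acid receptor of alternatively activated macrophages, read 9.23, 9.16 and 9.31 under saline, 7.68, 7.65 and 7.51 under TMT and 10.93, 11.22 and 11.21 under TET (3.51 (SE 0.11, adjusted p = 1.3e-08)), and its target Fabp4 differed by 1.33. Nr1h3, the sterol receptor LXRα, read 8.09, 8.17 and 8.03, 10.01, 9.48 and 10.30 and 8.64, 7.79 and 7.68 in the same order of groups (-1.90 (SE 0.26, adjusted p = 1.6e-04)). Pparg was lowest and Nr1h3 highest under TMT. The LXR target Abca1, which exports cholesterol, differed by -1.31, and the desaturase Scd2 by -2.88, while Abcg1, a second exporter, was at the same level under both organotins. Cholesterol synthesis genes had 8 higher and 5 lower of 20, with Sc5d at 1.52, Cyp51 at 0.93 and Nsdhl at -0.90. Scd2 differed by -1.65 with its probe sets averaged.

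Among prostaglandin enzymes 7 of 11 were higher and 3 lower (63.6% and 27.3%, beside 28.1% and 23.7% of all genes). Ptges, which makes prostaglandin E2, read 10.14, 10.23 and 10.10 under saline, 12.38, 12.24 and 12.44 under TMT and 9.72, 9.81 and 10.06 under TET (-2.49 (SE 0.11, adjusted p = 8.3e-08)). Hpgds, which makes prostaglandin D2, differed by 2.42 and Hpgd, which degrades prostaglandins, by 1.83. Synthase genes for the 2 prostaglandins thus differed in opposite directions. The secreted proteases Adamts1 and Adamts4 differed by 3.45 and 3.07, and Mmp14, a membrane metalloprotease, by -1.18. The scavenger receptor Marco read 7.11, 7.16 and 7.03 under saline, 9.79, 9.98 and 9.96 under TMT and 7.54, 7.70 and 7.75 under TET (-2.25 (SE 0.09, adjusted p = 7.0e-08)), the mannose receptor Mrc1 differed by 1.21 and the chitinase-like Chil3 by -1.86. Of 13 genes of MHC class II and costimulation 4 were higher and 5 lower (30.8% and 38.5%), with a median of -0.01. Among them were H2-Ab1 at -1.39, H2-Eb1 at -0.91, H2-DMa at -0.86 and H2-Aa at -0.81, and the activation marker Cd83 at 0.73. Marco differed by -1.30 with its probe sets averaged.

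Autophagy and lysosome genes held 30 higher and 12 lower of 56, which is 53.6% higher beside 28.1% of all genes. Gabarapl1, an ATG8-family autophagosome protein, read 10.34, 10.34 and 10.30 under saline, 10.16, 10.16 and 10.20 under TMT and 12.05, 12.61 and 12.72 under TET (2.29 (SE 0.15, adjusted p = 1.1e-06)). Atg2a, a lipid transfer protein of the growing autophagosome, differed by 2.91, Atg13, of the ULK1 initiation complex, by 2.37 and the cargo receptor Nbr1 by 1.55. Of 23 autophagy genes 13 were higher and 7 lower. Atg9a, the lipid scramblase of autophagosome growth, was among the lower, at -1.73. Of 9 genes of the folliculin, TFEB and Rag group, which senses amino acids at the lysosome, 6 were higher and 2 lower. Rragd read 7.28, 7.28 and 7.08 under saline, 6.43, 6.84 and 6.18 under TMT and 9.36, 9.89 and 9.80 under TET (3.20 (SE 0.18, adjusted p = 4.0e-07)), Flcn (folliculin) 7.90, 8.17 and 7.93, 10.22, 10.43 and 10.24 and 12.07, 12.13 and 12.32 in the same order (1.88 (SE 0.11, adjusted p = 5.2e-07)), and its partner Fnip1 differed by 1.86. Flcn was lowest under saline and highest under TET, whereas Rragd was high under TET alone. The transcription factor Tfe3 differed by -1.22. Of 24 lysosome genes 11 were higher, 3 were lower and 10 did not pass. The V-ATPase subunits Atp6v0d2, Atp6v1h and Atp6v1a, of the lysosomal proton pump, differed by 2.98, 1.76 and 0.98, the α-galactosidase gene Gla by 1.74 and the protease Ctsk by 1.42. Rragd differed by 2.09 with its probe sets averaged, and Gabarapl1 by 3.01 without those that may bind related transcripts.

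Proteasome genes had 8 higher and 16 lower of 41 (19.5% and 39.0%, beside 28.1% and 23.7% of all genes). With cyclic loess normalization 10 were higher and 11 lower. Without TET replicate 2 or TMT replicate 2, 5 were higher. Zfand2a (AIRAP), an arsenite-induced proteasome adaptor, read 9.08, 8.98 and 8.90 under saline, 10.86, 10.57 and 10.91 under TMT and 12.65, 12.89 and 13.001 under TET (2.07 (SE 0.12, adjusted p = 6.0e-07)). It was higher under TMT than saline on every array and higher again under TET. Nfe2l1, the transcription factor that restores proteasome genes, differed by -1.16, the 19S subunits Psmd1 by 0.79 and Psmc5 by -0.87, and the immunoproteasome subunit Psmb8 by -0.44.

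Ribosomal proteins of the cytosol and of the mitochondrion, which build the translation machinery of each compartment, were counted apart. Of 33 measured cytosolic ribosomal proteins 23 were higher under TET and 0 lower, but the differences were small, with a median of 0.29 and Rps19 (0.998) and Rpl4 (0.54) among them; under the other 3 scalings 16 to 22 were higher and 0 lower. Without probe sets that may bind related transcripts, 18 of these genes could be measured, 10 were higher and 4 lower. Of 71 mitochondrial ribosomal proteins 28 were lower and 7 higher with a median of -0.17, led by Mrpl10 (-1.20) and Mrpl40 (-0.98), but with cyclic loess normalization 17 were lower and 16 higher and the median was 0.02. Ribosome assembly factors had 14 higher and 5 lower of 30, with Nop58 at 11.24, 11.28 and 11.27 under saline, 9.36, 9.48 and 9.35 under TMT and 11.51, 11.34 and 11.24 under TET (1.96 (SE 0.09, adjusted p = 1.4e-07)). Mitochondrial energy genes had 8 higher and 25 lower of 92 (8.70% and 27.2%, beside 28.1% and 23.7% of all genes), and 13 and 18 with cyclic loess normalization, where the median turned from -0.09 to 0.03. Without TMT replicate 3 the number lower was 16, and without TET replicate 2 or TMT replicate 1 the number higher was 5. The pyruvate dehydrogenase subunits split, with Pdhb at 1.28, Pdha1 at -1.26 and Dlat at -1.26.

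Of 49 cell division genes 27 were higher under TET and 4 lower (55.1% and 8.16%, beside 28.1% and 23.7% of all genes). Higher were 13 of 19 mitosis genes and 9 of 18 replication genes, with 0 lower in either. The 12 G1 cyclins and CDK inhibitors had 5 higher and 4 lower with a median of 0.04. Without TET replicate 3, 3 replication genes were lower. Median levels of the mitosis genes were 6.08 under TMT and 7.34 under TET. In the second dimmest bin of all genes 35.4% were higher and 6.07% lower, and in the middle bin 33.6% and 25.3%. The mitosis genes were not matched for level. Ube2c, a mitotic ubiquitin-conjugating enzyme, read 8.85, 8.88 and 8.80 under saline, 7.03, 7.36 and 6.97 under TMT and 9.36, 9.09 and 8.58 under TET (1.89 (SE 0.18, adjusted p = 1.4e-05)). Ccnb2, cyclin B2, differed by 1.74, the kinesins Cenpe and Kif23 by 1.87 and 1.85, the polymerase subunit Pola1 by 2.25 and Rrm2, of nucleotide synthesis, by 1.76. For Ube2c and Ccnb2 the TET arrays overlapped the saline arrays, and the TMT arrays lay lower. Mki67, the proliferation marker, did not pass (interval -0.08 to 0.35). The cell cycle inhibitor Cdkn1b (p27) read 10.11, 10.30 and 10.28 under saline, 11.20, 11.06 and 11.17 under TMT and 8.81, 8.94 and 8.80 under TET (-2.30 (SE 0.09, adjusted p = 4.8e-08)). Tubulin genes differed by isotype, 3 higher and 5 lower of 10: Tubb2b differed by 3.01, Tubb4b by -2.42, Tuba1a by -2.01 and Tubb5 by -1.15. With all probe sets averaged the differences were Pola1 1.27 and Tubb4b -0.53.

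Purinergic receptors, which read extracellular nucleotides, had 4 higher and 4 lower of 12 (33.3% each way, near the share of all genes). Beside P2rx7, the UDP receptor P2ry6 differed by -1.39 and the ADP receptor P2ry13 by -1.77. Among potassium channels and ion pumps 3 of 9 were higher and 4 lower (33.3% and 44.4%), with the potassium channel Kcnk6 at -1.32, the volume-regulated channel subunit Lrrc8a at -0.97 and the cotransporter Slc12a2 at 1.16.

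A large share of genes did not separate the exposures. For 8111 genes (44.6%) the 95% interval of the difference, 1 gene at a time, lay within 1.5-fold in either direction. Of these 1091 had also passed the test, and 1748 genes neither passed nor met this margin. The intervals use the spread over all 9 arrays, saline among them. The count was not split by level, so dim genes that may be absent in these cells can be part of it. The dimmest bin holds 3639 genes at 2.21 to 4.86 log2 units. Of the genes that met the margin and did not pass, 12 lay farthest from saline. Natd1 read 6.25, 6.32 and 5.75 under saline, 9.11, 9.39 and 9.22 under TMT and 9.11, 9.37 and 9.46 under TET (interval of TET minus TMT -0.28 to 0.43). Zbtb8a lay on the other side of saline, at 8.93, 9.19 and 9.01 under saline, 5.52, 6.19 and 6.06 under TMT and 5.66, 6.204 and 6.201 under TET (interval -0.33 to 0.53). In both genes the 2 organotin groups overlapped and stood apart from saline by more than 2 log2 units. Ankrd37, a hypoxia target, averaged 7.29 under saline, 9.49 under TMT and 9.43 under TET. Abcg1 averaged 9.55, 11.44 and 11.42 in the same order, and the diacylglycerol kinase gene Dgkz 10.50, 12.74 and 12.48. Below saline under both organotins were Nck1, an adaptor of receptor tyrosine kinases, at 11.89, 9.82 and 9.78, and Col4a5, a basement membrane collagen, at 7.85, 5.62 and 5.59. Arhgap25 and Speg above saline and Tshz1, Rcsd1 and Gcnt1 below it complete the set. Other probe sets of Abcg1, Nck1, Rcsd1, Speg and Gcnt1 passed between the organotins. Alternative processing also made Speg pass in 7 settings, cyclic loess and omission of TMT replicate 2 among them, Dgkz in 4, array medians among them, and Rcsd1 without TET replicate 1.

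**Figure D5:**
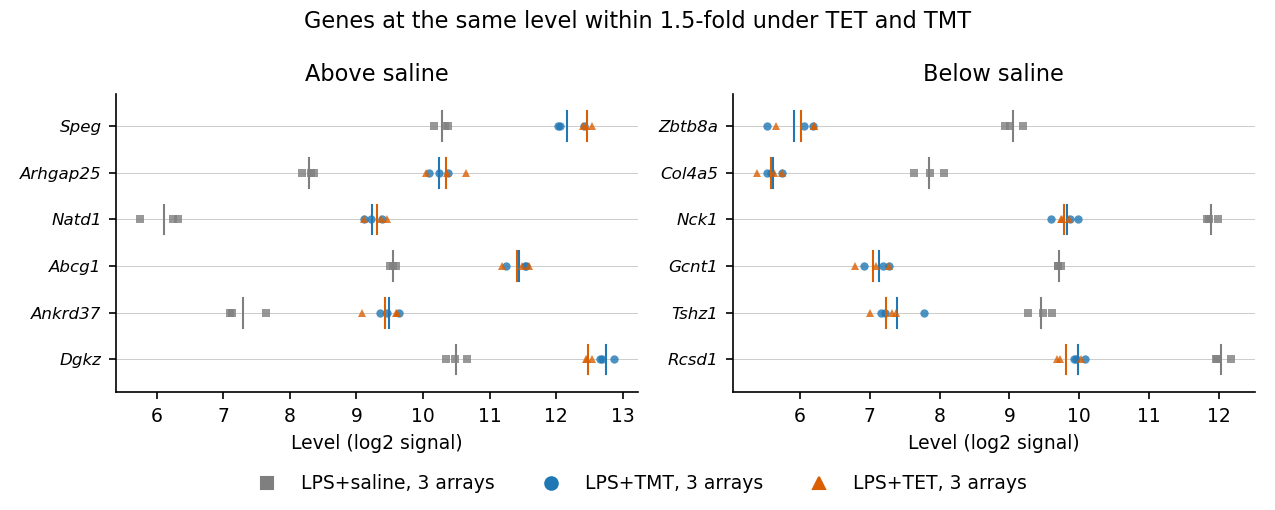
Levels (log2 signal, horizontal axis) of the 12 genes that differed by less than 1.5-fold between the organotins and lay farthest from saline; each point is 1 array and ticks are group means (3 arrays per group). TMT and TET points lie together, above saline on the left and below it on the right.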

How the data were processed

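RNA of 9 cultures was hybridised to Affymetrix whole-genome mouse arrays after whole-transcript amplification of 50 ng and biotin labelling, per the labels' protocols. The deposited values are log2 signals; affy and RMA are named in the submitters' processing notes, and how background and scaling were set is not given in the sources used here. RMA fits probes on a log scale and equalises arrays, which can compress dim signals; precision rests on the number of arrays. Gene names were taken from the platform annotation, with symbols updated through RefSeq gene IDs; 932 that name several genes and 9160 that name none were left out.

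The 3 groups were fitted with limma 3.58.1 (R 4.3.3; lmFit, eBayes), TET minus TMT was taken as the contrast and p-values were adjusted by Benjamini-Hochberg over 18193 genes. The fit was tested on simulated data. Saline arrays, whose replicates varied least, enter the estimate of spread and are given as levels. The replicate numbers were not treated as pairs in the main fit. The correlations of same-numbered deviations between TET and TMT were -0.10, -0.15 and 0.15. With 3 arrays per group they cannot show whether the cultures were set up in matched sets. Genes named are the 20 largest differences each way with arrays that do not overlap and a level at or above the median in the higher group, up to 6 members per list role with the smallest adjusted p plus its extremes, 12 alike genes and 31 measured genes listed by name; the text names part of them. The 24 lists hold 1086 genes, 1008 of them measured. Members and lists were chosen with earlier results of these data known. Promoters are RefSeq's (GRCm38.p6). Alternatives covered scaling, probe set choice, moderation, thresholds, a replicate block and leaving out each array.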

Additional observations from a re-analysis of the deposited data

How the results depend on the processing

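The count of genes that differed, 9425, stayed between 8006 (without TMT replicate 3) and 9232 (without TET replicate 2) when 1 array was left out; 4131 to 5120 were then higher under TET and 3836 to 4320 lower, and 0 calls were in the opposite direction. Other scalings gave 8374 (quantile normalization again), 8822 (array medians) and 8159 (cyclic loess) with 0 opposite calls, and array medians turned the split to 4223 higher and 4599 lower. With a replicate block 9119 differed, 4896 higher and 4223 lower, and only 1 of 3 TET arrays correlated best with the TMT array of its number. Among the 9097 brighter genes alone 6270 differed, 2366 higher and 3904 lower, which turned the split. Requiring at least 1.5-fold left 5540, 2542 higher and 2998 lower, which turned it too, and by construction ended the calls of Nlrp3, Il1b, Atf4, Casp4, Hsp90b1, Psat1, Psmb8 and Rpl4. With a 2-fold margin 13415 genes were alike. Fitting the 6 TET and TMT arrays alone, so that saline did not enter the spread, gave 8064 genes that differed. Of these 4230 were higher and 3834 lower, with 0 opposite calls.

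The mean of all probe sets gave 10154 genes, 83 of them called in the opposite direction, and dropping the cross-hybridising probe sets gave 8356 and 78; Gcnt1, alike in its brightest probe set, then differed by 0.40 (adjusted p = 0.0052) with the mean, as the construction of that value allows. Most genes named in the text were followed through the alternatives. Mertk, Itgam, Tek, Kdr, Pecam1, Cdh5, P4ha1, P4ha2 and Ddit4 were among those not followed. Of 246 followed genes that passed, 236 passed under every alternative that measured them, 10 were lost in at least 1 and 0 reversed. Of 21 followed genes that did not pass, 8 passed under at least 1. Among counts in the 71 list roles, 2579 of 2840 stayed within 1.5 times. Levels are relative signals, dim probe sets have no stated background, and TET replicates vary most.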
